A study of Homo sapiens with 9 samples.

Results

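The genes described here are 33 genes of the tricarboxylic acid (TCA) cycle and of the routes by which pyruvate and glutamine enter it. They were taken by gene name from a table of 27673 genes and were grouped by the step that they serve. The list was chosen with earlier results of these data known. The RNA came from A498, an established human cell line derived from clear cell renal carcinoma (ccRCC), after lentiviral transduction with short hairpins that target ARNT (shARNT), BMAL1 (shBMAL1) or neither (shControl) and selection with puromycin. All groups therefore carried a viral vector and had passed the same selection, and each group was named for 1 hairpin and had 3 biological replicates. BMAL1 and ARNT are bHLH-PAS transcription factors, the former pairing with CLOCK in the circadian clock and the latter with HIF1α or HIF2α in the response to hypoxia, and the comparison asks how the transcripts of this pathway differ when either one is depleted.

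The TCA cycle oxidizes acetyl-CoA in the mitochondrial matrix and passes the electrons to the respiratory chain. Pyruvate crosses the inner membrane through a carrier and is then either oxidized to acetyl-CoA by the pyruvate dehydrogenase complex or carboxylated to oxaloacetate, while glutamine enters as 2-oxoglutarate by way of glutamate. In ccRCC, loss of the VHL tumor suppressor leaves HIF2α stable in the presence of oxygen, and HIF activity is known for turning pyruvate away from the cycle and towards lactate.

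Library totals were even, from 35269857 to 36099083 counts. The hairpin targets were lower in their own groups, with 18.8% of the shControl level left for ARNT in shARNT and 30.9% left for BMAL1 (listed as ARNTL) in shBMAL1. ARNT was also lower in shBMAL1, on the log2 scale by -0.65 ± 0.060 (SE, adjusted p = 1.54e-08), whereas ARNTL was higher in shARNT, at 0.55 ± 0.087 (SE, adjusted p = 8.27e-06). EPAS1, which encodes HIF2α, fell in both groups (-2.22 in shARNT and -0.57 in shBMAL1), and HIF1A rose in both (1.48 and 1.59). All 8 markers of renal epithelium and of ccRCC lines had counts in every group, and their summed level was 2101 to 2257 CPM (counts per 1000000 counts of the scaled library size) in shARNT, 5918 to 6406 in shBMAL1 and 7998 to 8053 in shControl. Most of the sum in shControl was VIM, with a mean of 5974 CPM there and 812 in shARNT, while PAX8 rose 2.79-fold in shARNT and KRT18 was not called there (log2 fold change of -0.01). Among tubule markers LRP2 was listed at 0 throughout, and the summed level of the 3 was at most 2.43 CPM. Markers of leukocytes, endothelium and hepatocytes stayed near or below 1 CPM. The list of 7 markers of other cells summed to 40.7 to 50.8 CPM in shARNT, 35.1 to 38.1 in shBMAL1 and 229.8 to 243 in shControl, nearly all of it COL1A1, while DCN, the other fibroblast marker, was below 0.31 CPM. In bulk RNA fewer cells of a kind and less RNA per cell cannot be told apart. The part that these marker differences have in the results was not tested.

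Of the 33 genes, 32 passed the filter on low counts and were among the 15551 genes tested. The exception was ME3, a mitochondrial malic enzyme, with 6, 2 and 9 counts in shControl, 0, 3 and 2 in shBMAL1 and 1, 1 and 0 in shARNT, and no fold is given for it. To compare genes with each other, levels were divided by transcript length. Per kilobase, the highest in shControl were MDH2 at 177 ± 3.8 CPM (SD, n = 3) and the citrate carrier SLC25A1 at 177 ± 5.5, which did not differ beyond their spread, and then MDH1 at 127 ± 2.1. At the low end of the genes tested were MPC1 at 5.74 ± 0.70, ME2 at 2.33 ± 0.25 and OGDHL at 0.473 ± 0.089. The plot of levels per kilobase shows IDH3B, PDHX, DLD and OGDHL displaced upwards and MPC2 and GLUD1 downwards in shARNT, and OGDH, IDH2, D2HGDH and OGDHL displaced downwards in shBMAL1.

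**Figure D1:**
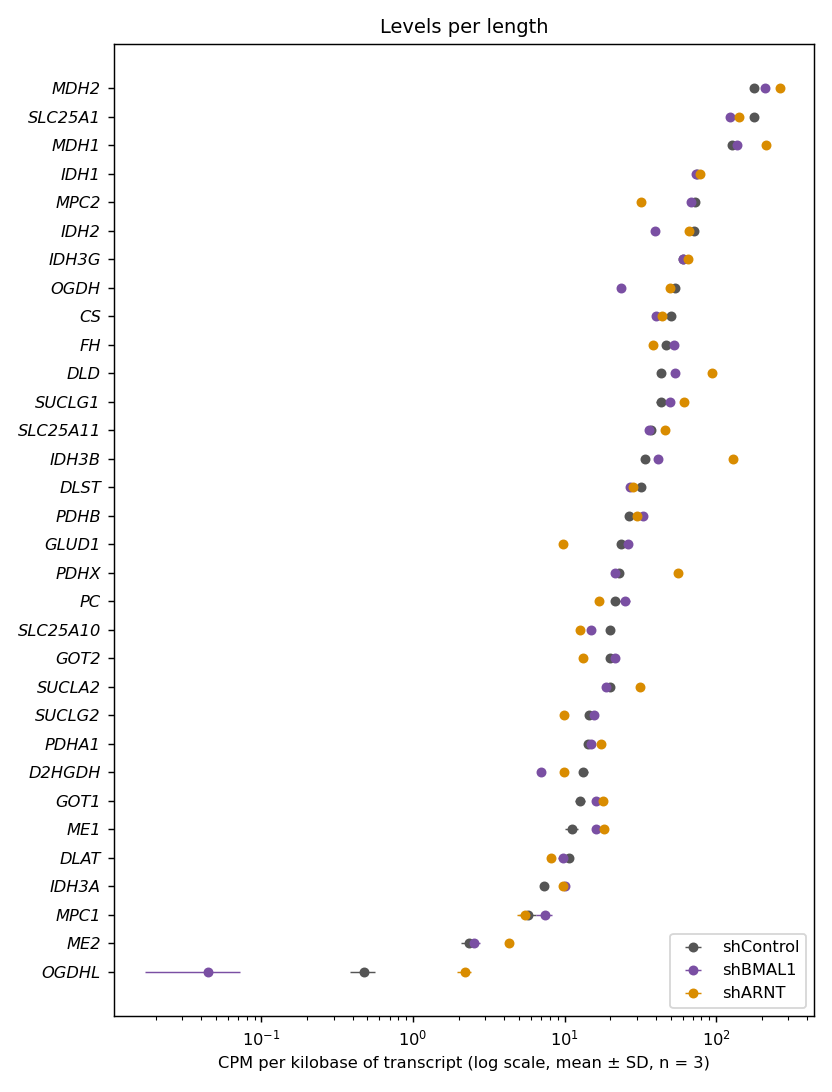
Level of each tested gene in CPM per kilobase of transcript (horizontal, log scale) in shControl, shBMAL1 and shARNT, as mean ± SD of 3 libraries, ordered by the level in shControl. Bars hidden by the points are smaller than the points. The genes span from 0.473 (OGDHL) to 177 (MDH2) in shControl.

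Depletion of ARNT raised 16 of the 32 tested genes and lowered 14, at an adjusted p under 0.1 in the quasi-likelihood test of edgeR, with 2 not called. Across all genes tested, 40.5% were called higher and 41.3% lower in this comparison, beside 50% and 43.8% of the pathway genes. Depletion of BMAL1 raised 14 genes and lowered 9, or 43.8% and 28.1% against 31.9% and 31.5% of all genes, and 9 were not called. In the direct comparison of the depletions, which uses no control library, 20 genes were higher in shARNT and 10 were lower, or 62.5% and 31.2% against 40.1% and 41.1% of all genes. Of the 32 genes 5 were called in opposite directions against shControl and also called between the depletions, which is 15.6% beside 19.4% of all genes. Whether the set differs from other genes was not tested. The median log2 fold change of the tested pathway genes was 0.08 in shARNT, 0.08 in shBMAL1 and 0.18 between shARNT and shBMAL1, beside -0.01, 0.00 and -0.01 for all genes. Their median absolute log2 fold change was 0.47, 0.22 and 0.45, below the 0.66, 0.32 and 0.64 of all genes. All genes were not matched to the pathway genes for expression level, either here or for the shares called. When a change of more than 1.5-fold was required (glmTreat of edgeR), 8 of the genes were higher and 2 lower in shARNT, where 20% and 24.8% of all genes were called, and 0 were higher and 4 lower in shBMAL1, where 6.6% and 6.97% were. Between the depletions 9 were then higher and 4 lower, beside 19.4% and 24.5% of all genes. Both depletions were compared with the same shControl libraries.

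These counts depend on how libraries are scaled. Scaling by trimmed means (TMM) gave the shARNT libraries factors of 1.10 to 1.11, beside 0.961 to 0.971 for shBMAL1 and 0.932 to 0.944 for shControl. With library size alone, the median of all genes moved to 0.23 in shARNT, 0.05 in shBMAL1 and 0.18 between the depletions, and the split of the pathway genes became 19 higher and 9 lower in shARNT, 16 and 8 in shBMAL1, and 22 and 6 between the depletions. The summed level of the 33 genes was 2969 ± 30.2 CPM in shControl, 2811 ± 9.6 in shBMAL1 and 3494 ± 51.0 in shARNT (SD, n = 3), without overlap between groups. The sum in shARNT was 1.18 times that of shControl and the sum in shBMAL1 was 0.947 times, each at the smallest p that an exact two-sided permutation test of 3 against 3 libraries allows, 0.1. The plot of log2 fold changes shows the individual genes by step.

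**Figure D2:**
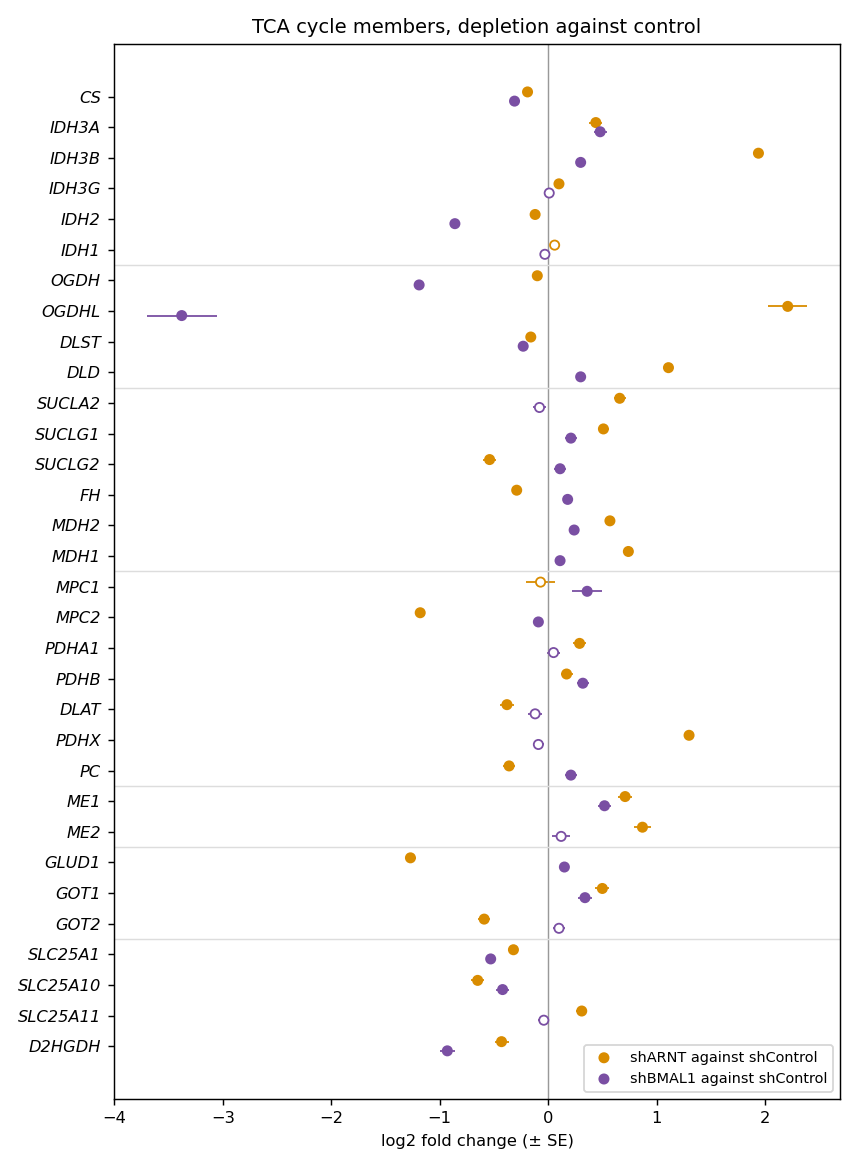
Log2 fold change (horizontal, ± SE) of each tested pathway gene in shARNT (orange) and shBMAL1 (purple) against the same 3 shControl libraries, with horizontal lines between the steps of the pathway. Filled points were called at an adjusted p under 0.1 and open points were not. OGDHL lies farthest out on both sides, at 2.21 and -3.38.

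Among the isocitrate dehydrogenases, which make 2-oxoglutarate, IDH3A and IDH3B rose in both depletions and IDH2 fell in shBMAL1, whereas IDH1 was called in neither depletion. IDH3B, a regulatory subunit of the NAD-dependent enzyme of the cycle (chromosome 20, 2639041 to 2644865, minus strand, GRCh37), was at 53.2, 51.0 and 51.8 CPM in shControl, 62.7, 65.7 and 63.4 in shBMAL1 and 199.6, 198 and 200.0 in shARNT. All shARNT libraries lay far above the others, and the shBMAL1 libraries lay above shControl without overlap. The log2 change was 1.94 ± 0.043 (SE, adjusted p = 3.41e-19) in shARNT, 0.30 ± 0.043 (SE, adjusted p = 6.43e-06) in shBMAL1 and 1.64 ± 0.042 (SE, adjusted p = 3.7e-18) between the depletions. The catalytic subunit IDH3A rose in both groups, at 0.44 ± 0.059 (SE, adjusted p = 1.13e-06) and 0.48 ± 0.059 (SE, adjusted p = 7.85e-07), and the difference between the depletions was not called (-0.04 ± 0.057, SE, adjusted p = 0.482). IDH3G, the other regulatory subunit, was at 0.10 ± 0.045 (SE, adjusted p = 0.0396) in shARNT and 0.01 ± 0.045 (SE, adjusted p = 0.874) in shBMAL1. The IDH3G call in shARNT was lost without shControl replicate 1 (0.07, adjusted p = 0.183) or shARNT replicate 1 (0.09, adjusted p = 0.105), and its call between the depletions (0.09 ± 0.044, SE, adjusted p = 0.0595) was lost without shBMAL1 replicate 1 (adjusted p = 0.144), shARNT replicate 1 (0.143) or shARNT replicate 2 (0.132). The counts of IDH3A relative to IDH3B in the same library changed from 0.570 ± 0.021 in shControl and 0.647 ± 0.020 in shBMAL1 to 0.201 ± 0.011 in shARNT (SD, n = 3).

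IDH2, the mitochondrial NADP-dependent enzyme (chromosome 15, 90626277 to 90645709, minus strand), was at 188, 192 and 193 CPM in shControl, 106, 109 and 102 in shBMAL1 and 179, 178 and 172 in shARNT. The shBMAL1 libraries stood apart from both other groups, with 0.552 times the shControl level and a log2 change of -0.86 ± 0.041 (SE, adjusted p = 5.6e-13). In shARNT the change was -0.12 ± 0.040 (SE, adjusted p = 0.0126), which reversed to 0.12 with library size alone. IDH1, its cytosolic counterpart, was at 0.06 ± 0.040 (SE, adjusted p = 0.144) in shARNT and -0.03 ± 0.040 (SE, adjusted p = 0.554) in shBMAL1 and was called in neither. However, it was called in shARNT with library size alone (0.30, adjusted p = 7.85e-07) or without shControl replicate 3 (0.10, adjusted p = 0.0545). It was called higher in shARNT than in shBMAL1 (0.09 ± 0.040, SE, adjusted p = 0.0382), and this was lost without shBMAL1 replicate 3 (0.07, adjusted p = 0.158). CS, citrate synthase, which joins acetyl-CoA to oxaloacetate, was at 146 ± 3.8 CPM in shControl, 117 ± 1.3 in shBMAL1 and 128 ± 0.51 in shARNT (SD, n = 3). Its log2 change was -0.31 ± 0.039 (SE, adjusted p = 9.13e-07) in shBMAL1 and -0.19 ± 0.039 (SE, adjusted p = 0.000145) in shARNT, where library size alone turned it to 0.04.

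The 2-oxoglutarate dehydrogenase complex, which makes succinyl-CoA, held the largest changes of the set, with opposite calls for the E1 isoform OGDHL. OGDH, the main E1 subunit (chromosome 7, 44646171 to 44748665, plus strand), was at 229.6, 221 and 221 CPM in shControl, 98.9, 99.0 and 97.1 in shBMAL1 and 198, 208 and 219.8 in shARNT. The shBMAL1 libraries were at 0.440 times the shControl level with little spread, and the shARNT libraries reached up to the edge of the shControl range without overlapping it. This was -1.19 ± 0.043 (SE, adjusted p = 9.88e-15) on the log2 scale in shBMAL1 and 1.08 ± 0.043 (SE, adjusted p = 4.74e-15) between the depletions. In shARNT it was -0.10 ± 0.042 (SE, adjusted p = 0.0313), and this call was lost without shARNT replicate 1 (-0.06, adjusted p = 0.187) and reversed to 0.13 with library size alone.

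OGDHL, an isoform of the E1 subunit (chromosome 10, 50942687 to 50970425, minus strand), had 47, 68 and 59 counts in shControl, 6, 9 and 2 in shBMAL1 and 308, 358 and 297 in shARNT. In CPM these were 1.41, 2.07 and 1.79 in shControl, 0.175, 0.261 and 0.0588 in shBMAL1 and 7.78, 9.05 and 7.48 in shARNT. The groups did not overlap, and the order was shBMAL1, shControl, shARNT. OGDHL was 4.61-fold higher in shARNT (2.21 ± 0.18, SE, adjusted p = 6.97e-10) and 10.4-fold lower in shBMAL1 (-3.38 ± 0.32, SE, adjusted p = 2.42e-08), and the direct comparison gave 5.58 ± 0.27 (SE, adjusted p = 9.64e-14). Its level stayed a small part of that of OGDH, with 0.00786 OGDHL counts per OGDH count in shControl, 0.00167 in shBMAL1 and 0.0390 in shARNT.

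Because ARNT and BMAL1 dimers bind related motifs, the promoter of each gene, from 250 bases before to 50 after its start, was read from RefSeq (GRCh38.p14). An entry was found for 32 of the 33 genes, and OGDH had none. The core of the site bound by HIF dimers is ACGTG or GCGTG, and only ACGTG was searched for, so promoters without it may still hold a HIF site. ACGTG was found on either strand in 8 of 32 promoters (25%, Wilson 95% interval 13.3% to 42.1%), beside 21.6% of all 27305 promoters. The E-box CACGTG, which contains ACGTG and is bound by BMAL1 and CLOCK, was found in 3 of 32 (9.38%, interval 3.24% to 24.2%), beside 7.43% of all promoters. The stretches around the E-box are shown for all 3 carriers, OGDHL, PDHB and ME3. Each is written on the strand of its gene with the E-box in capitals. The motif starts 21 bases before the start of OGDHL (chr10:49762324-49762364, minus strand), 236 before that of PDHB (chr3:58434043-58434082, minus strand) and 154 before that of ME3 (chr11:86672745-86672790, minus strand). No binding was measured in these samples. The study measured BMAL1 and HIF2α on chromatin in other samples of A498 cells, which were not used here.
OGDHL: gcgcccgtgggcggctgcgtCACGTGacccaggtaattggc
PDHB: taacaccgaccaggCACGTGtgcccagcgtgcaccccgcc
ME3: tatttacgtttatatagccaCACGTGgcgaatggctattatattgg
The genes with ACGTG were IDH3G, IDH1, OGDHL, PDHB, DLAT, PC, ME3 and GOT2, and the other promoters read had no match in this window. Whether the motifs relate to the changes was not tested.

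DLD, the E3 subunit that the 2-oxoglutarate and pyruvate dehydrogenase complexes share (chromosome 7, 107531607 to 107572175, plus strand), was at 157, 147 and 156 CPM in shControl, 191, 186 and 190.3 in shBMAL1 and 326, 333 and 337 in shARNT. Every depleted library lay above every shControl library, and the shARNT libraries were highest. DLD changed by 1.11 ± 0.038 (SE, adjusted p = 4.9e-16) in shARNT, 0.30 ± 0.038 (SE, adjusted p = 1.12e-06) in shBMAL1 and 0.81 ± 0.038 (SE, adjusted p = 7.34e-14) between the depletions. DLST, the E2 core of the 2-oxoglutarate complex, went down by less, with -0.23 ± 0.047 (SE, adjusted p = 0.000322) in shBMAL1 and -0.16 ± 0.047 (SE, adjusted p = 0.00424) in shARNT, the latter turning to 0.08 with library size alone. The difference between the depletions was not called for DLST, except with library size alone (0.26, adjusted p = 4.43e-05).

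**Figure D3:**
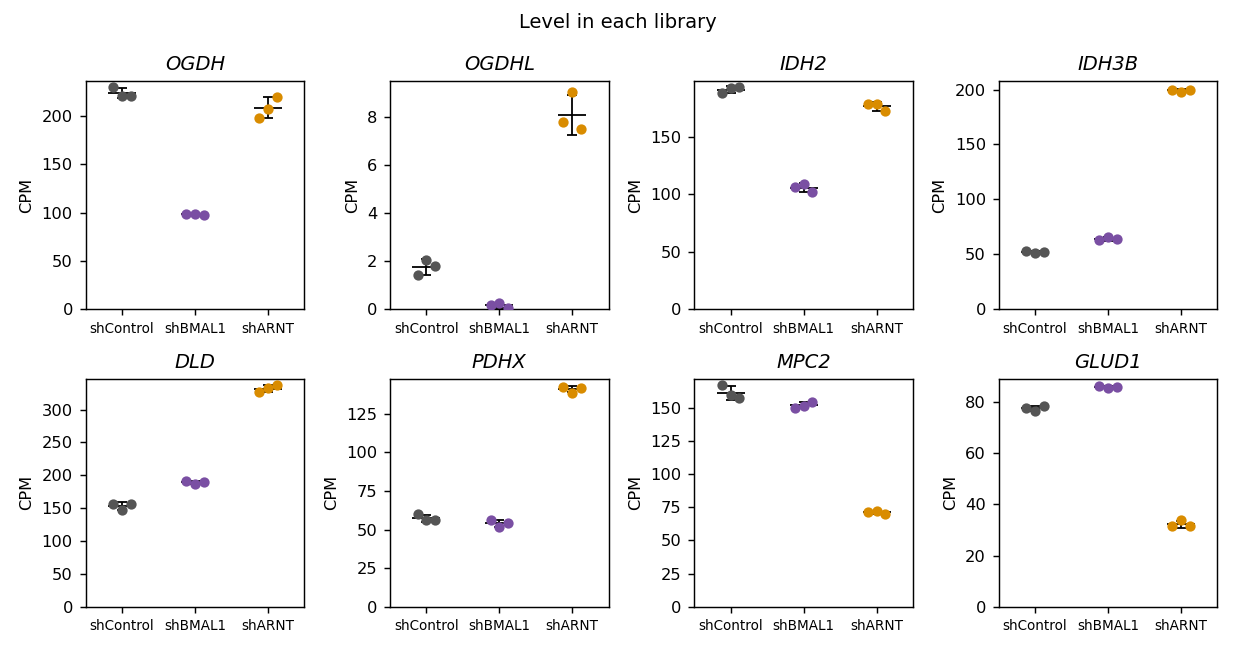
Level in CPM (vertical, from 0, a scale for each gene) of 8 pathway genes in each of the 9 libraries, with the mean (black line) and SD (bars) of each group of 3. OGDH and IDH2 are low in shBMAL1, IDH3B, DLD and PDHX are high in shARNT, MPC2 and GLUD1 are low in shARNT, and OGDHL is low in shBMAL1 and high in shARNT.

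From succinyl-CoA to oxaloacetate, shARNT raised 4 of 6 genes and lowered 2, while shBMAL1 raised 5 of 6 by small amounts. These are 66.7% and 33.3% in shARNT, beside 40.5% and 41.3% of all genes tested. In shBMAL1 it is 83.3% beside 31.9%, and whether this step differs from other genes was not tested. The succinyl-CoA synthetases differ in their β subunit, SUCLA2 for the form that makes ATP and SUCLG2 for the form that makes GTP. SUCLA2 was at 45.1, 40.1 and 40.4 CPM in shControl, 39.8, 38.8 and 40.2 in shBMAL1 and 64.6, 68.8 and 65.7 in shARNT. SUCLG2 was at 33.8, 33.1 and 34.7 CPM in shControl, 35.2, 38.8 and 36.1 in shBMAL1 and 23.5, 22.7 and 23.8 in shARNT. In shARNT all SUCLA2 libraries were above and all SUCLG2 libraries below both other groups. The log2 fold change in shARNT was 0.66 ± 0.055 (SE, adjusted p = 7.47e-10) for SUCLA2. For SUCLG2 it was -0.54 ± 0.059 (SE, adjusted p = 5.53e-08) in shARNT. In shBMAL1 SUCLA2 was not called (-0.08 ± 0.057, SE, adjusted p = 0.232), and SUCLG2 was at 0.11 ± 0.058 (SE, adjusted p = 0.0979), a call lost without any one of 8 of the 9 libraries, with adjusted p from 0.105 to 0.364 and log2 fold changes from 0.07 to 0.13 (shBMAL1 replicate 1 was the exception). The count ratio of SUCLA2 to SUCLG2 was 1.24 ± 0.089 in shControl, 1.08 ± 0.071 in shBMAL1 and 2.85 ± 0.16 in shARNT (SD, n = 3). SUCLG1, the α subunit common to both, was at 57.0, 50.4 and 56.6 CPM in shControl, 60.2, 64.7 and 64.6 in shBMAL1 and 75.1, 78.8 and 79.7 in shARNT. Its groups did not overlap, with 0.51 ± 0.054 (SE, adjusted p = 3.68e-08) in shARNT and 0.21 ± 0.055 (SE, adjusted p = 0.00286) in shBMAL1.

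FH, fumarase, whose inherited loss predisposes to another form of renal cancer, had opposite calls. Its mean was 83.5 ± 2.0 CPM in shControl, 94.3 ± 2.0 in shBMAL1 and 68.4 ± 1.0 in shARNT (SD, n = 3). FH changed by -0.29 ± 0.044 (SE, adjusted p = 5.2e-06) in shARNT, where the call was lost with library size alone (-0.05, adjusted p = 0.296), and 0.18 ± 0.043 (SE, adjusted p = 0.00176) in shBMAL1. The malate dehydrogenases rose together. MDH2, in the matrix (chromosome 7, 75677369 to 75696826, plus strand), was at 379, 382 and 395 CPM in shControl, 459, 453 and 451 in shBMAL1 and 548, 574 and 594 in shARNT. MDH1, in the cytosol, was at 167, 164 and 162 CPM in shControl, 173, 176 and 182 in shBMAL1 and 275, 270.2 and 279 in shARNT. For both genes the order was shControl, shBMAL1, shARNT without overlap. MDH2 changed by 0.57 ± 0.037 (SE, adjusted p = 1.32e-11) in shARNT and 0.24 ± 0.037 (SE, adjusted p = 1.3e-05) in shBMAL1. MDH1 changed by 0.74 ± 0.037 (SE, adjusted p = 2.35e-13) in shARNT and 0.11 ± 0.038 (SE, adjusted p = 0.0194) in shBMAL1.

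Among the genes of pyruvate entry, PDHX rose and the carrier subunit MPC2 fell in shARNT, and shBMAL1 changed none of the 7 by 0.5 or more on the log2 scale. Such changes were uncommon in shBMAL1, where 6.6% of all genes tested were higher and 6.97% lower at a minimum fold of 1.5. Whether this step differs from other genes was not tested. MPC2, a subunit of the mitochondrial pyruvate carrier (chromosome 1, 167885913 to 167906310, minus strand), was at 167, 159.5 and 157 CPM in shControl, 150.1, 151 and 155 in shBMAL1 and 71.5, 72.2 and 69.9 in shARNT. The shARNT libraries were at 0.442 times the shControl level and far from both other groups (-1.18 ± 0.041, SE, adjusted p = 6.18e-16). In shBMAL1 the change was -0.09 ± 0.040 (SE, adjusted p = 0.0755), a call lost without shControl replicate 1 (-0.06, adjusted p = 0.26), shControl replicate 2 (-0.09, 0.101), shBMAL1 replicate 1 (-0.07, 0.178) or shBMAL1 replicate 2 (-0.08, 0.145). MPC1, the partner subunit, was not called in shARNT (-0.07 ± 0.14, SE, adjusted p = 0.657) and was at 0.36 ± 0.14 (SE, adjusted p = 0.0281) in shBMAL1, where the call was lost without shControl replicate 2 (0.30, adjusted p = 0.108) or shBMAL1 replicate 1 (0.26, adjusted p = 0.15).

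PDHX, which anchors E3 to the pyruvate dehydrogenase complex (chromosome 11, 34937376 to 35042138, plus strand), was at 60.0, 56.2 and 56.0 CPM in shControl, 56.2, 51.7 and 54.0 in shBMAL1 and 143, 138 and 142 in shARNT. The shARNT libraries were all above 138 CPM and the others at 60.0 CPM or below. PDHX changed by 1.30 ± 0.047 (SE, adjusted p = 1.14e-15) in shARNT, and in shBMAL1 it was -0.09 ± 0.048 (SE, adjusted p = 0.128), not called except without shBMAL1 replicate 1 (-0.12, adjusted p = 0.0697). The E2 core DLAT was at -0.38 ± 0.064 (SE, adjusted p = 1.68e-05) in shARNT, and in shBMAL1 it was -0.12 ± 0.063 (SE, adjusted p = 0.126), not called except without shBMAL1 replicate 1 (-0.16, adjusted p = 0.049). The parts of the complex did not share a direction in shARNT, where the E1 subunits PDHA1 and PDHB were called higher. PDHA1 was at 0.29 ± 0.056 (SE, adjusted p = 9.98e-05) in shARNT and 0.05 ± 0.057 (SE, adjusted p = 0.46) in shBMAL1. PDHB was at 0.17 ± 0.056 (SE, adjusted p = 0.00869) in shARNT and 0.32 ± 0.056 (SE, adjusted p = 6.04e-05) in shBMAL1. The ratio of PDHX to DLAT counts was 1.39 ± 0.012 in shControl, 1.42 ± 0.12 in shBMAL1 and 4.45 ± 0.25 in shARNT (SD, n = 3).

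PC, pyruvate carboxylase, which supplies oxaloacetate, was at 89.3, 92.1 and 96.3 CPM in shControl, 101, 102 and 117 in shBMAL1 and 71.9, 68.4 and 76.2 in shARNT. The groups did not overlap, and the order was shARNT, shControl, shBMAL1. The log2 change was -0.36 ± 0.057 (SE, adjusted p = 9.94e-06) in shARNT, 0.21 ± 0.057 (SE, adjusted p = 0.00361) in shBMAL1 and -0.57 ± 0.057 (SE, adjusted p = 1.51e-08) between the depletions. The count ratio of PC to PDHA1 was 1.93 ± 0.088 in shControl and 2.16 ± 0.27 in shBMAL1, which overlapped, and 1.23 ± 0.066 in shARNT (SD, n = 3).

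Both malic enzymes that passed the filter rose in shARNT. These enzymes turn malate back into pyruvate. ME1, the cytosolic form that makes NADPH, was at 34.96, 35.3 and 41.6 CPM in shControl, 56.9, 52.5 and 51.5 in shBMAL1 and 60.2, 62.7 and 60.6 in shARNT. All depleted libraries were above all shControl libraries, by 0.71 ± 0.064 (SE, adjusted p = 2.49e-09) in shARNT and 0.52 ± 0.064 (SE, adjusted p = 7.43e-07) in shBMAL1. ME2, a mitochondrial form, was at 18.8, 21.2 and 23.2 CPM in shControl, 24.3, 23.9 and 20.4 in shBMAL1 and 36.9, 40.2 and 38.6 in shARNT. The shARNT libraries were higher without overlap (0.87 ± 0.078, SE, adjusted p = 2.59e-09), and the shBMAL1 libraries overlapped shControl (0.12 ± 0.081, SE, adjusted p = 0.224, not called, but called at 0.19 without shControl replicate 3, adjusted p = 0.0675, or shBMAL1 replicate 3, adjusted p = 0.0514). With library size alone ME2 was also called in shBMAL1 (0.17, adjusted p = 0.085).

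At the entry of glutamate, shARNT lowered the mitochondrial enzymes GLUD1 and GOT2 and raised cytosolic GOT1. GLUD1, glutamate dehydrogenase (chromosome 10, 88809959 to 88854600, minus strand), was at 77.4, 76.5 and 78.5 CPM in shControl, 86.3, 85.5 and 85.9 in shBMAL1 and 31.4, 33.7 and 31.4 in shARNT. The order was shARNT, shControl, shBMAL1 without overlap. The log2 change was -1.27 ± 0.048 (SE, adjusted p = 2.35e-15) in shARNT, 0.15 ± 0.046 (SE, adjusted p = 0.00909) in shBMAL1 and -1.42 ± 0.048 (SE, adjusted p = 3.8e-16) between the depletions. GLUD2 is a nearly identical copy without introns, and how reads that fit both copies were divided was not stated, so the level of each is uncertain. GLUD2 itself was at -1.23 ± 0.045 (SE, adjusted p = 1.37e-15) in shARNT and 0.18 ± 0.043 (SE, adjusted p = 0.00164) in shBMAL1, and the sum of both copies was 196 ± 4.9 CPM in shControl, 219.6 ± 2.7 in shBMAL1 and 82.5 ± 2.7 in shARNT (SD, n = 3), or 1.12 and 0.422 times shControl.

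The aspartate aminotransferases pass amino groups between glutamate and aspartate and serve the malate-aspartate shuttle. GOT2, in mitochondria, was at 50.2, 46.3 and 47.8 CPM in shControl, 49.8, 53.2 and 52.1 in shBMAL1 and 30.8, 33.1 and 32.0 in shARNT. GOT1, in the cytosol (chromosome 10, 101156627 to 101190381, minus strand), was at 25.4, 23.1 and 26.8 CPM in shControl, 32.1, 30.0 and 33.4 in shBMAL1 and 34.6, 36.9 and 35.3 in shARNT. In shARNT no GOT2 library reached the other groups, and every depleted library was above shControl for GOT1. GOT2 changed by -0.59 ± 0.055 (SE, adjusted p = 4.96e-09) in shARNT. GOT2 was not called in shBMAL1 (0.10 ± 0.054, SE, adjusted p = 0.106), but was without shControl replicate 1 (0.14, adjusted p = 0.0592) or shBMAL1 replicate 1 (0.13, adjusted p = 0.0691). With library size alone it was also called there (0.15, adjusted p = 0.0235). GOT1 was at 0.50 ± 0.065 (SE, adjusted p = 5.82e-07) in shARNT and 0.34 ± 0.066 (SE, adjusted p = 0.00017) in shBMAL1, and the difference between the depletions (0.16 ± 0.064, SE, adjusted p = 0.0256) was lost without shBMAL1 replicate 2 (0.12, adjusted p = 0.125). Within a library, GOT1 had 0.522 ± 0.033 counts per GOT2 count in shControl, 0.616 ± 0.045 in shBMAL1 and 1.11 ± 0.011 in shARNT (SD, n = 3).

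Of the carriers of cycle intermediates, SLC25A1 and SLC25A10 fell in both depletions. SLC25A1, which exports citrate from mitochondria, was at 266, 283 and 272 CPM in shControl, 183, 192 and 195 in shBMAL1 and 216, 218 and 224 in shARNT. SLC25A10, the dicarboxylate carrier, was at 39.7, 39.3 and 36.8 CPM in shControl, 27.4, 29.8 and 29.5 in shBMAL1 and 25.1, 24.7 and 23.9 in shARNT. Neither gene overlapped between any of the groups, with shBMAL1 lowest for SLC25A1 and shARNT lowest for SLC25A10. SLC25A1 changed by -0.53 ± 0.039 (SE, adjusted p = 5.53e-10) in shBMAL1 and -0.32 ± 0.039 (SE, adjusted p = 2.41e-07) in shARNT. SLC25A10 changed by -0.42 ± 0.059 (SE, adjusted p = 5.02e-06) in shBMAL1 and -0.65 ± 0.060 (SE, adjusted p = 3.67e-09) in shARNT. SLC25A11, the 2-oxoglutarate carrier of the malate-aspartate shuttle, rose in shARNT (0.31 ± 0.050, SE, adjusted p = 1.12e-05) and was not called in shBMAL1 (-0.04 ± 0.050, SE, adjusted p = 0.549).

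D2HGDH, which oxidizes D-2-hydroxyglutarate to 2-oxoglutarate, was at 31.5, 36.1 and 34.9 CPM in shControl, 17.8, 17.4 and 18.6 in shBMAL1 and 25.2, 26.1 and 24.7 in shARNT. The order was shBMAL1, shARNT, shControl without overlap. D2HGDH changed by -0.93 ± 0.067 (SE, adjusted p = 3.45e-10) in shBMAL1, -0.43 ± 0.064 (SE, adjusted p = 4.54e-06) in shARNT and 0.50 ± 0.067 (SE, adjusted p = 1.08e-06) between the depletions. Together with OGDH, OGDHL and IDH2 it was called lower in shBMAL1 by the test against a minimum fold of 1.5. That test called 4 of the pathway genes lower and 0 higher there, beside 6.97% and 6.6% of all genes.

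Ratios of 2 genes within a library do not depend on scaling between libraries. Of 14 pairs listed, 12 could be compared, the pairs with ME3 being left out for counts of 0. Where the groups did not overlap, the difference reached the smallest exact permutation p for 3 against 3 libraries, 0.1 (0.106 after Benjamini-Hochberg adjustment over 36 tests), so that the design cannot pass 0.05. IDH1 counts per IDH2 count were 0.913 ± 0.027 in shControl, 1.62 ± 0.018 in shBMAL1 and 1.03 ± 0.027 in shARNT (SD, n = 3). For MPC1 per MPC2 they were 0.0321 ± 0.0029, 0.0439 ± 0.0060 and 0.0695 ± 0.0077 in the same order. The MDH1 to MDH2 ratio went from 0.427 ± 0.015 in shControl to 0.390 ± 0.013 in shBMAL1 and 0.481 ± 0.018 in shARNT. ME1 per ME2 was 1.77 ± 0.10, 2.35 ± 0.16 and 1.59 ± 0.040 in shControl, shBMAL1 and shARNT.

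**Figure D4:**
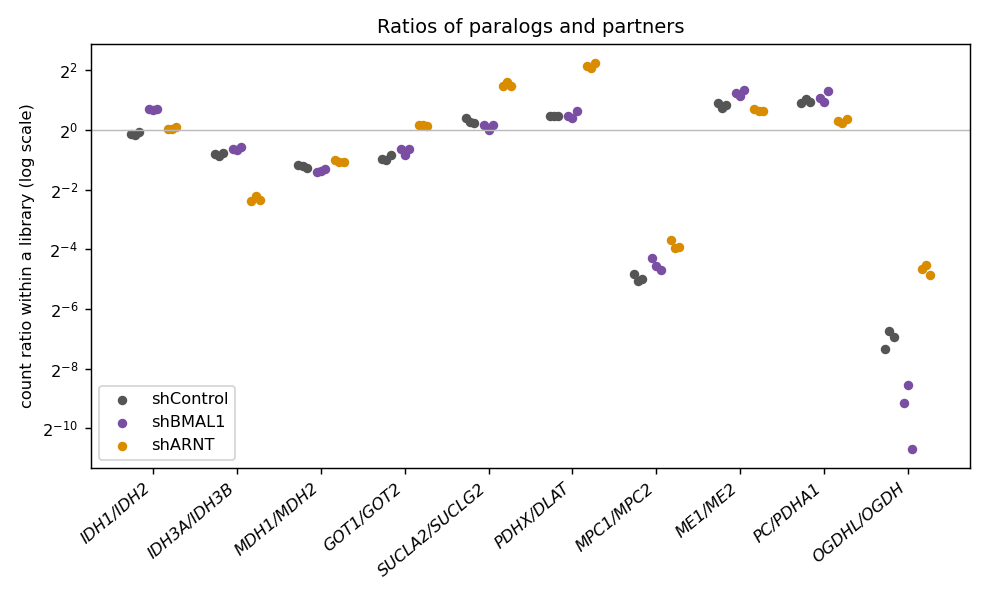
Ratio of the counts of 2 pathway genes in the same library (vertical, log scale) for 10 pairs, with 1 point for each of the 3 libraries of shControl, shBMAL1 and shARNT. The shARNT libraries are set apart for SUCLA2/SUCLG2, PDHX/DLAT, GOT1/GOT2 and IDH3A/IDH3B, and the shBMAL1 libraries for IDH1/IDH2.

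A list of 49 other genes of the pathway was examined beside these, of which 46 passed the filter. In shARNT 21 rose and 17 fell, in shBMAL1 18 rose and 14 fell, and between the depletions 15 were higher and 21 lower in shARNT. These are 45.7% and 37% of the tested genes of the list beside 40.5% and 41.3% of all genes in shARNT, 39.1% and 30.4% beside 31.9% and 31.5% in shBMAL1, and 32.6% and 45.7% beside 40.1% and 41.1% between the depletions. With library size alone the numbers became 29 and 14, 18 and 14, and 20 and 17. Under that scaling 60.5%, 55.9% and 58.6% of the calls among all genes were higher. The list's median log2 fold changes were 0.00, 0.08 and -0.11. GLUL, NNT and PCK1 were listed at 0 to 6 counts in all libraries. How reads that match several places were counted was not stated, so that these values do not show that the genes were silent.

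ACO1, which turns citrate into isocitrate in the cytosol, fell in shARNT (-0.47 ± 0.042, SE, adjusted p = 2.34e-09) and rose in shBMAL1 (0.23 ± 0.042, SE, adjusted p = 9.49e-05). Of the succinate dehydrogenase subunits, SDHB rose in both depletions, at 0.55 ± 0.058 (SE, adjusted p = 3.44e-08) in shARNT and 0.27 ± 0.059 (SE, adjusted p = 0.00054) in shBMAL1. SDHA was at -0.17 ± 0.036 (SE, adjusted p = 0.000317) in shARNT, which turned to 0.07 with library size alone, and at -0.12 ± 0.036 (SE, adjusted p = 0.0065) in shBMAL1. SDHC and SDHD were called in neither depletion, with log2 fold changes of -0.01 and -0.05 in shARNT (0.23 and 0.19 with library size alone) and -0.01 and 0.05 in shBMAL1.

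The switch between oxidation of pyruvate and lactate held the largest changes among these other genes. LDHA, the lactate dehydrogenase subunit known as a HIF target, was at 1613, 1560.4 and 1654 CPM in shControl, 2189, 2289.5 and 2316 in shBMAL1 and 229, 228 and 231 in shARNT. It was 7.02-fold lower in shARNT (-2.81 ± 0.036, SE, adjusted p = 1.02e-22) and 1.41-fold higher in shBMAL1 (0.49 ± 0.034, SE, adjusted p = 1.63e-10). LDHB, the other subunit, rose in both, at 0.67 ± 0.034 (SE, adjusted p = 2.53e-13) and 0.94 ± 0.034 (SE, adjusted p = 9.88e-15). Of the kinases that switch off pyruvate dehydrogenase, PDK2 fell and PDK4 rose in both depletions. PDK2 was at 100.4, 101 and 98.9 CPM in shControl, 71.0, 69.3 and 73.0 in shBMAL1 and 14.8, 11.9 and 12.3 in shARNT, or -2.94 ± 0.066 (SE, adjusted p = 5.01e-19) in shARNT and -0.49 ± 0.058 (SE, adjusted p = 3.78e-07) in shBMAL1. PDK4 was at 1.53, 2.10 and 1.88 CPM in shControl, 7.11, 6.42 and 5.03 in shBMAL1 and 12.8, 14.6 and 13.7 in shARNT, or 2.89 ± 0.15 (SE, adjusted p = 2.44e-13) in shARNT and 1.75 ± 0.16 (SE, adjusted p = 7.95e-09) in shBMAL1. All depleted libraries were below all shControl libraries for PDK2 and above them for PDK4. PDK3 was not called in shARNT (-0.03 ± 0.15, SE, adjusted p = 0.841) and was called higher in shBMAL1 (0.33 ± 0.15, SE, adjusted p = 0.0597), a call that was lost with DESeq2 (adjusted p = 0.138), without shControl replicate 2 (0.149) or without shBMAL1 replicate 3 (0.202). PDK1 fell in shARNT (-1.22 ± 0.12, SE, adjusted p = 1.61e-08) and was not called in shBMAL1 (0.18 ± 0.11, SE, adjusted p = 0.199), and the opposing phosphatase PDP1 rose in both, by more in shBMAL1 (1.24 ± 0.076, SE, adjusted p = 3.05e-11) than in shARNT (0.53 ± 0.078, SE, adjusted p = 3.64e-06).

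The mitochondrial glutamate carrier SLC25A22 had opposite calls, with 1.03 ± 0.066 (SE, adjusted p = 1.14e-11) in shARNT and -0.67 ± 0.071 (SE, adjusted p = 9.62e-08) in shBMAL1. PCK2, which makes phosphoenolpyruvate from oxaloacetate in mitochondria, fell in shARNT (-1.69 ± 0.090, SE, adjusted p = 5.78e-13) and was not called in shBMAL1 (0.11 ± 0.082, SE, adjusted p = 0.269, but called without shControl replicate 1 at 0.19, adjusted p = 0.0743, or shBMAL1 replicate 1 at 0.18, adjusted p = 0.0742). ADHFE1, a transhydrogenase that forms D-2-hydroxyglutarate from 2-oxoglutarate, rose in shBMAL1 (1.16 ± 0.098, SE, adjusted p = 3.74e-09) and was at -0.01 ± 0.10 (SE, adjusted p = 0.9) in shARNT, or 0.22 with library size alone. SLC25A44, a carrier of branched-chain amino acids, rose in both, at 1.88 ± 0.080 (SE, adjusted p = 1.42e-14) in shARNT and 0.73 ± 0.084 (SE, adjusted p = 2.78e-07) in shBMAL1.

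**Figure D5:**
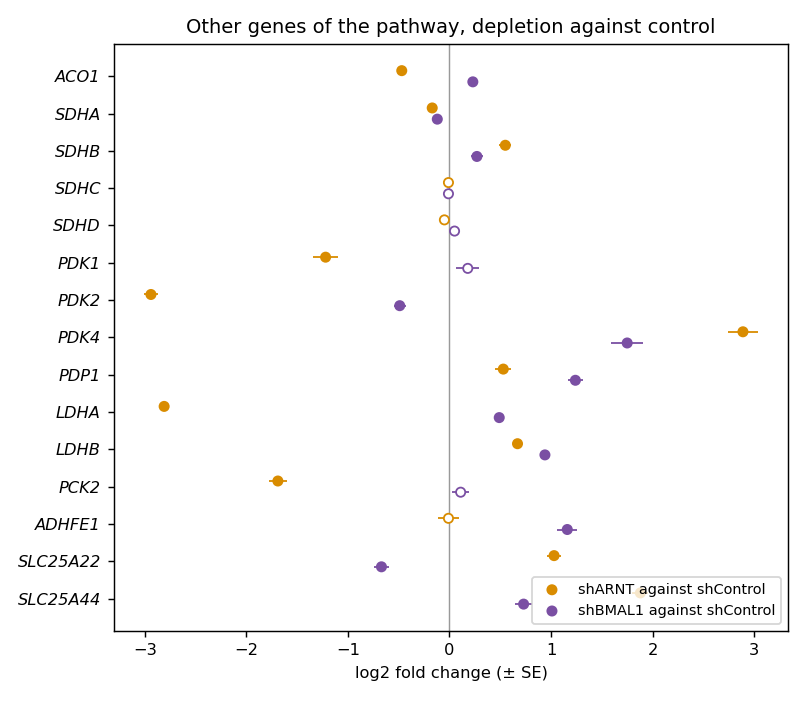
Log2 fold change (horizontal, ± SE) of 15 other genes of the pathway in shARNT (orange) and shBMAL1 (purple) against the same 3 shControl libraries. Filled points were called at an adjusted p under 0.1 and open points were not. LDHA and PDK2 are lowest in shARNT, at -2.81 and -2.94, and PDK4 is highest, at 2.89.

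Several of these genes share exon sequence with a neighbor, and the use of strand in counting was not stated. For IDH3A 63.9% of the transcript lies within exons of ACSBG1 on the opposite strand, but ACSBG1 was at most 0.0882 CPM in any library. For PDHA1 the share is 28.5% with MAP3K15, which reached at most 0.735 CPM, and for DLAT it is 25.9% with PIH1D2, at most 2.79 CPM. For SLC25A10 62.9% of the transcript is shared with another annotated gene on the same strand, so that its counts are uncertain. PDK2 shares 62.8% with SAMD14 on the opposite strand, whose median was 9.14 CPM in shControl, 2.81 in shBMAL1 and 1.21 in shARNT. LDHB shares 76.5%, SDHA 69.4% and ADHFE1 63.3% with another annotated gene on their own strand. Beside IDH3A, SLC25A10, PDHA1 and DLAT, the shares among the 33 genes were 14.3% for D2HGDH, 14.1% for GLUD1, 9.74% for IDH3G, 9.42% for PDHB, 8.37% for MPC2 and 7.55% for CS, and at most 6.69% for each of the rest. The partner of IDH3G, SSR4, had medians of 255 CPM in shControl, 363 in shBMAL1 and 156 in shARNT, above the level of IDH3G itself. DCAF6, the partner of MPC2, had medians of 152, 188 and 122 CPM in the same order, and like MPC2 it was lowest in shARNT. The part of these overlaps in the counts was not tested.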

How the data were processed

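RNA from 3 groups of A498 cells, 3 biological replicates each, was sequenced as paired-end reads. The deposited values are expected counts, that is, reads per gene without normalization, exported by the authors. The methods of the study name SeqMan NGen, ArrayStar and GRCh37, whereas the submitters' processing notes list STAR, DESeq2 and hg38, and which of these made the table could not be settled. The handling of strand and of reads with several matches, and whether reads or pairs were counted, was not stated. A value of 0.05 stood for no reads and was set to 0, 43 names held by more than 1 row were summed, 28 rows named by a date were kept apart, and values were rounded.

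A quasi-likelihood model was fitted with edgeR 4.0.16 (R 4.3.3) to all 9 libraries with the group as the only factor, TMM scaling and filterByExpr, which left 15551 genes. A gene was called when its adjusted p (Benjamini-Hochberg, over all genes tested) was under 0.1. CPM are counts per 1000000 counts of the TMM-scaled library size. The fit was tested on simulated data with known fold changes in a small part of the genes. Most genes were called in shARNT, so the simulation did not test the scaling between libraries. Totals of 35269857 to 36099083 counts per library limit precision most for OGDHL and ME3. Intervals for promoter shares cover counting error only. Replicates differed by more than sampling noise, so none were merged. Libraries with the same replicate number did not deviate together (correlations of -0.04 to 0.07, none of 9 over 0.1), so the numbers were not taken as pairs. That the replicates were separate cultures is known only from the term biological replicate.

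Values in each library are given for genes with an absolute log2 fold change of at least 0.5 in a called comparison. From the list of 49 other genes, the text names ACO1, SDHA, SDHB, SDHC, SDHD, PDK1 and LDHA, and per comparison the 4 called genes with the largest change and an average log2 CPM of at least 2. GLUD2, PDK3, the genes without reads and the overlapping neighbors were named after their values were seen. Some genes of that list are not reported here. The members and lists were chosen with earlier results of these data known. Positions and transcript lengths are from GENCODE lifted to GRCh37. The lists of markers for renal, tubule and other cells served to check the cells. Alternatives were library size alone, DESeq2 1.42.0, no filter on low counts, the replicate number as a block, only the 6 libraries compared, an adjusted p under 0.05, a minimum fold of 1.5 (glmTreat), halved counts, and each library left out.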

Additional observations from a re-analysis of the deposited data

Results flagged for a closer look

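In 5 of the 32 genes tested the depletions were called in opposite directions against shControl and differed in the direct comparison of shARNT with shBMAL1 by the quasi-likelihood test of edgeR. This is 15.6% of them, beside 19.4% of all 15551 genes tested. OGDHL was higher in shARNT and lower in shBMAL1, with a log2 difference of 5.58. The other 4 had the reverse order, with shARNT below and shBMAL1 above shControl. GLUD1 differed by -1.42, and its counts cannot be separated from those of GLUD2. SUCLG2 differed by -0.65, but its rise in shBMAL1 (0.11, adjusted p = 0.0979) was lost in most alternatives. PC differed by -0.57. FH differed by -0.46, and its fall in shARNT was lost with library size alone. The changes against shControl share the same control libraries, and the direct comparison uses none of them. At a minimum fold of 1.5, OGDHL was called in both depletions.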

How the results depend on the processing

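With a minimum fold of 1.5 the pathway genes called, of 32 tested, were 8 higher and 2 lower in shARNT, 0 higher and 4 lower in shBMAL1, and 9 higher and 4 lower between the depletions. Of all genes tested, 20% were then higher and 24.8% lower in shARNT, 6.6% and 6.97% in shBMAL1, and 19.4% and 24.5% between the depletions. Of the 46 other genes of the pathway tested, those called at this minimum fold were 9 higher and 9 lower, 6 higher and 2 lower, and 7 higher and 12 lower, in the same order of comparisons. Scaling by library size alone left 9 pathway genes lower in shARNT and 6 lower between the depletions, and gave summed levels of 2780.4 CPM in shControl, 2719.4 in shBMAL1 and 3856.8 in shARNT. DESeq2 size factors gave 2800.1 in shBMAL1. The reversals among the genes named came from library size alone, under which the median of all genes was 0.23 in shARNT and 0.18 between the depletions. They were, in shARNT against shControl, CS (0.04), IDH2 (0.12), OGDH (0.13), DLST (0.08), ADHFE1 (0.22), SDHA (0.07), SDHC (0.23) and SDHD (0.19). Between the depletions they were IDH3A (0.15), PDHB (0.04), SDHA (0.15), SDHC (0.18) and HIF1A (0.08). FH in shARNT, MPC2 in shBMAL1, and MPC1, DLAT and SLC25A10 between the depletions lost their calls there, with log2 fold changes of -0.05, -0.04, -0.24, -0.08 and -0.04. Calls were gained there by IDH1 in shARNT (0.30), ME2 (0.17) and GOT2 (0.15) in shBMAL1, and DLST between the depletions (0.26).

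Leaving out each library in turn gave 15 to 17 pathway genes higher and 13 to 14 lower in shARNT, 12 to 14 and 8 to 10 in shBMAL1, and 19 to 20 and 10 between the depletions. Replicate numbers did not pair the libraries. With the replicate block the counts were 16 and 14, 13 and 10, and 20 and 10, where SUCLG2 lost its call in shBMAL1 (adjusted p = 0.11) and DLAT gained one (adjusted p = 0.0815). Under DESeq2 and under halved counts 95 of 96 calls of the pathway genes kept their side of the threshold, and without the filter on low counts 93 of 96 did. Depth limits OGDHL in shBMAL1, which rests on 2 to 9 counts per library, and ME3.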

Other observations

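Some further genes of the pathway list were named after their values were seen. ACLY, which turns exported citrate into acetyl-CoA for lipid synthesis, was at 1609.7, 1578 and 1598 CPM in shControl, 942, 947 and 931 in shBMAL1 and 538, 547 and 587 in shARNT, without overlap, and it fell in the same groups as the citrate carrier SLC25A1. Its log2 change was -1.52 ± 0.036 (SE, adjusted p = 1.15e-18) in shARNT and -0.76 ± 0.035 (SE, adjusted p = 4.19e-13) in shBMAL1. SLC16A1, a carrier of lactate and pyruvate across the plasma membrane, fell in shARNT (-1.60 ± 0.042, SE, adjusted p = 5.85e-18) and in shBMAL1 (-0.37 ± 0.040, SE, adjusted p = 1.56e-07). SLC16A3, of the same family and at a higher level in shControl (740 against 250 CPM), rose in shARNT (0.38, adjusted p = 4.48e-08). In shBMAL1 SLC16A3 fell (-0.51, adjusted p = 1.58e-09). CPT1A, which admits fatty acids to mitochondria, rose in shARNT (0.90 ± 0.050, SE, adjusted p = 1.14e-12) and fell in shBMAL1 (-0.20 ± 0.051, SE, adjusted p = 0.00271).

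GPT2, the mitochondrial alanine aminotransferase that makes 2-oxoglutarate from glutamate, had opposite calls like the glutamate carrier SLC25A22. It was at 51.0, 46.8 and 49.1 CPM in shControl, 31.2, 30.0 and 31.5 in shBMAL1 and 94.3, 95.4 and 102 in shARNT, with a log2 difference of 1.65 ± 0.053 (SE, adjusted p = 1.53e-16) between the depletions. SLC38A2, a plasma membrane carrier of neutral amino acids that include glutamine, had calls in the other order, with -0.65 ± 0.051 (SE, adjusted p = 3.22e-10) in shARNT and 0.53 ± 0.050 (SE, adjusted p = 1.96e-08) in shBMAL1. Genes of the same families on the list did not follow these patterns. GPT fell in shARNT (-2.15) and in shBMAL1 (-1.20), as did SLC38A1 (-0.53 and -0.47).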
